A study of Homo sapiens with 21 samples.

Results

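The quantity described here is the change of the mir-429 effect in HEY cells between 24 and 144 h after transfection. It was computed for each gene as the mir-429 minus control difference at 144 h less the same difference at 24 h, from group means of log2 levels. It used 12 of the series' 21 arrays: cells transfected with mir-429 at 144 h, with the control at 144 h, with mir-429 at 24 h and with the control at 24 h, 3 arrays each. HEY is an established human ovarian carcinoma line. Every cell in these 4 groups had been transfected with a lipid reagent while growing exponentially, and the control was a negative control microRNA that the labels name synthetic mirna. The 48 h arrays entered an alternative fit to all 21 arrays and are otherwise quoted only as mean differences and RNA quality under the closing observations. The 3 untransfected arrays at 0 h are quoted as levels. A value above 0, or a change called upward, means that the mir-429 minus control difference was more positive at 144 h, and a log2 difference of 1 is a 2-fold difference. Samples are labelled as biological replicates with nothing said of how cultures were kept apart, so a p-value reflects sample-to-sample spread, which may be technical. In RNA from whole cultures, fewer cells of a type and less RNA per cell cannot be told apart.

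MicroRNAs of the miR-200 family pair through their seed with sites in target mRNAs, mostly in the 3' end of the message, and lower the stability and translation of those mRNAs. The best known targets are ZEB1 and ZEB2, transcription factors that repress genes of cell junctions and epithelial identity, and the ZEB factors in turn repress the miR-200 genes. A transfected microRNA is not renewed by the cell and can be diluted as cells divide. In ovarian cancer the family is known for its link to epithelial features.

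The mature sequences are shown because 3 of the 5 family members share the seed through which mir-429 acts. Capitals mark the seed, bases 2 to 8. miR-429 lies on the plus strand at chr1:1169055-1169076 of GRCh38.p14, close to miR-200b and miR-200a, and miR-200c and miR-141 lie on chromosome 12. All sequences are those of RefSeq, and the sequence of the transfected reagent itself was not used here.
hsa-miR-429: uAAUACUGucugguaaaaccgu
hsa-miR-200b-3p: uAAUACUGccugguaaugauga
hsa-miR-200c-3p: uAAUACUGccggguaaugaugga
hsa-miR-200a-3p: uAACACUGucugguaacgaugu
hsa-miR-141-3p: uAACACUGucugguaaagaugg

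The cells were checked against markers. KRT7, KRT8, KRT18, PAX8, WT1, CD24 and CLDN3 of ovarian carcinoma lay above the array median on all 12 arrays, whereas EPCAM, CDH1, MUC16 and CLDN4 were above it on 0. Of 14 leukocyte markers with a probe set, LCP1 was above the median on 12 arrays and no other on more than 1. Their mean level was between 3.03 and 3.20 in mir-429 and between 3.0 and 3.26 in control arrays at 144 h, and between 3.10 and 3.11 in mir-429 and between 3.05 and 3.35 in control arrays at 24 h. RNA quality was read from control probe sets, as the 3' minus 5' signal averaged over GAPDH and ACTB. At 144 h mir-429 arrays averaged 3.35 ± 0.13 and control arrays 3.90 ± 0.47 (SD, n = 3 each; exact permutation p = 0.2, two-sided). At 24 h mir-429 arrays averaged 2.87 ± 0.36 and control arrays 4.21 ± 0.21 (SD, n = 3 each; exact permutation p = 0.1, the smallest that 3 against 3 allows). The mean was lower in mir-429 arrays at both times, and the gap was 0.79 narrower at 144 h. At 24 h the values did not overlap, at 2.54 to 3.25 in mir-429 and 4.0 to 4.43 in control arrays, so this signal and the mir-429 effect cannot be fully told apart.

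A total of 2675 of 12580 tested genes had a mir-429 effect at 144 h that differed from that at 24 h (limma, adjusted p below 0.05), 21.3% of genes. The effect moved upward in 1015 genes (8.07%) and downward in 1660 (13.2%). Upward changes were thus 37.9% of the calls, and this share was 48.8% after quantile scaling and 49.0% after scaling to a common median. A size of 1 log2 unit or more was reached by 160 upward and 497 downward genes. With this RNA quality signal as a term in the fit, called the quality term from here on, the count was 590 (4.69%), 209 upward (1.66%) and 381 downward (3.03%), 578 of them among the 2675. The median size of the 2675 changes was then 0.69, against 0.76 without the term, and their median SE was 0.22, against 0.18. Whether a call lost with this term was due to RNA quality was not tested.

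At 144 h alone mir-429 and control arrays differed in 892 genes (7.09%), 261 higher (2.07%) and 631 lower (5.02%) with mir-429. At 24 h they differed in 3788 genes (30.1%), 2041 higher (16.2%) and 1747 lower (13.9%). With the quality term 181 genes were called at 144 h (1.44%) and 64 at 24 h (0.509%). The quality signal did not overlap between the arms at 24 h, so these 2 counts cannot be compared as sizes of the effect. In the fit without that term most of the called changes were a difference at 24 h that was not called at 144 h: 732 of the 1015 upward genes were lower with mir-429 at 24 h and not called at 144 h, and 1131 of the 1660 downward genes were higher at 24 h and not called at 144 h. Effects called at 144 h and not at 24 h made up 85 upward and 217 downward genes. Opposite calls at the 2 times were found for 43 upward genes, higher at 144 h and lower at 24 h, and for 68 downward genes, lower at 144 h and higher at 24 h. Another 52 genes were higher and 128 lower at both times without a called change, and 138 upward and 225 downward genes were called at neither time. Of the genes higher with mir-429 at 24 h, 1214 (59.5%) had a called downward change, and of those lower at 24 h, 788 (45.1%) had a called upward change. The 24 h difference is itself subtracted in the change, so genes picked by it lean this way. These shares are therefore not read further.

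**Figure D1:**
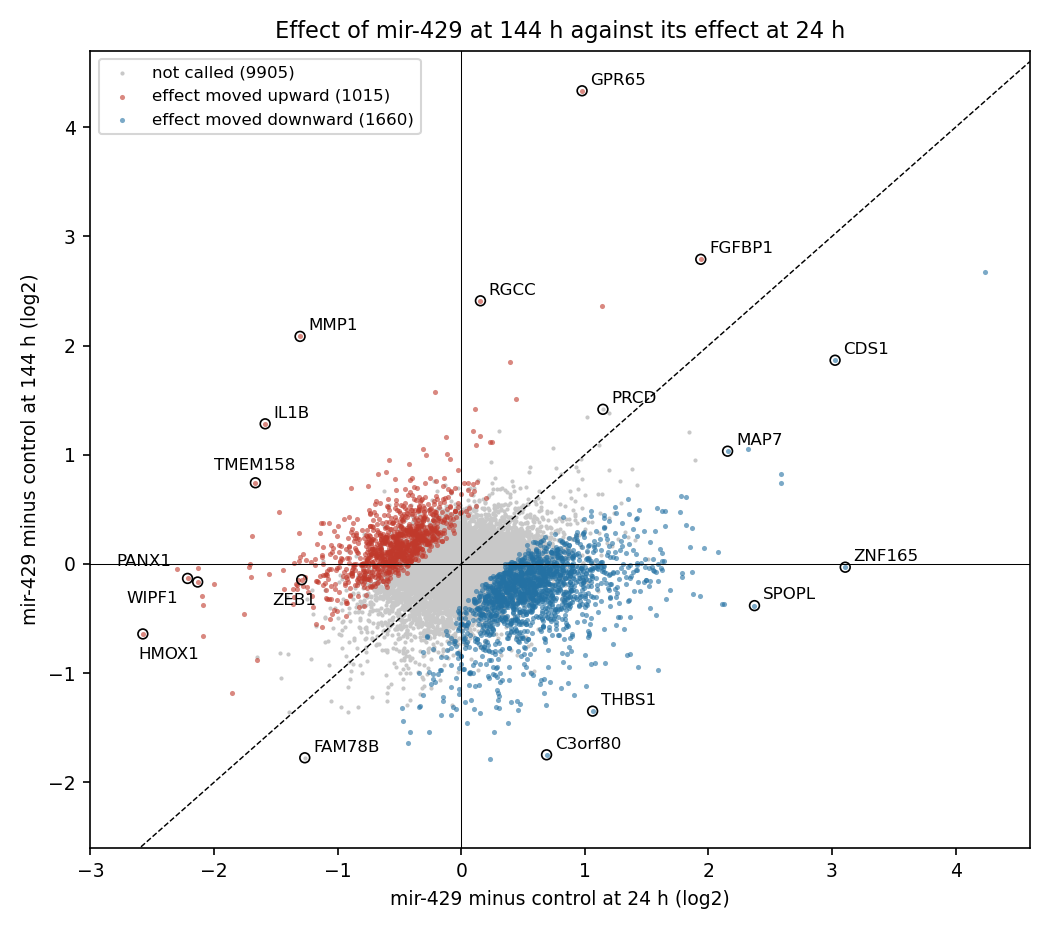
Each point is a gene, with the mir-429 minus control difference at 24 h on the horizontal axis and at 144 h on the vertical axis, both in log2. Red marks the 1015 genes whose effect moved upward and blue the 1660 whose effect moved downward; genes on the dashed diagonal had the same effect at both times, and most coloured points lie near 0 at 144 h.

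Each change can also be split by arm, because it equals the change over time of mir-429 cells less that of control cells. Mir-429 cells differed between 144 and 24 h in 4522 genes (35.9%), 1882 higher (15%) and 2640 lower (21%) at 144 h. Control cells differed in 3447 (27.4%), 1790 higher (14.2%) and 1657 lower (13.2%). Among the 1015 upward genes, 659 (64.9%) rose over time in mir-429 cells and 387 (38.1%) fell over time in control cells. Among the 1660 downward genes, 1042 (62.8%) fell in mir-429 cells and 664 (40.0%) rose in control cells. These time changes make up the change itself, so genes picked by it lean this way, and the shares are not read further. For 279 upward and 474 downward genes the time change was called in control cells and not in mir-429 cells. A missing call does not show that mir-429 cells stayed level. The control group at 24 h was the farthest of the 4 from the untransfected mean for 40.5% of upward and 45.8% of downward genes, and for 43.9% of all genes tested.

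The largest upward change as measured was that of MMP1, the interstitial collagenase. Its log2 level was 8.84, 8.58 and 8.63 in mir-429 and 6.70, 6.70 and 6.39 in control cells at 144 h, and 7.72, 7.50 and 7.58 in mir-429 and 8.89, 8.89 and 8.94 in control cells at 24 h. The arms did not overlap at either time and changed places. The mir-429 effect was 2.08 ± 0.11 at 144 h and -1.30 ± 0.11 at 24 h (SE, n = 3 per group), a change of 3.39 ± 0.16 (limma adjusted p = 6.9e-07). Over time control cells fell by 2.31, while mir-429 cells rose by 1.08. IL1B, a pro-inflammatory cytokine, had the same pattern with another division between arms. It stood at 9.84, 9.66 and 9.73 in mir-429 and 8.56, 8.56 and 8.25 in control cells at 144 h, and at 5.93, 5.90 and 5.70 in mir-429 and 7.29, 7.53 and 7.46 in control cells at 24 h. Again no values overlapped, and mir-429 cells rose by 3.90 over time, control cells by 1.03. The change of its effect was 2.87 ± 0.16 (limma adjusted p = 3.08e-06). TMEM158, a membrane protein induced by RAS, changed by 2.41 ± 0.25, from effects of 0.74 at 144 h and -1.67 at 24 h; its call at 144 h was lost when any array of that time other than control replicate 1 was left out (0.50 to 0.78), and with the quality term (0.63).

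GPR65, a receptor that senses protons, was higher with mir-429 at 144 h above all. It was at 8.56, 8.16 and 8.22 in mir-429 and 4.13, 3.96 and 3.84 in control cells at 144 h, and at 4.87, 4.43 and 4.69 in mir-429 and 3.13, 3.73 and 4.19 in control cells at 24 h. All 6 control values lay below the medians of their own arrays, which are between 4.21 and 4.29, so the effect was at least 4.08 at 144 h and at least 0.40 at 24 h with these values raised to the median. The change was 3.36 ± 0.31 as measured (limma adjusted p = 0.000157) and 3.67 with that floor. RGCC, a regulator of the cell cycle and a target of complement signalling, was at 8.72, 8.33 and 8.67 in mir-429 and 6.37, 6.24 and 5.87 in control cells at 144 h, and at 4.51, 4.68 and 4.64 in mir-429 and 4.11, 4.78 and 4.48 in control cells at 24 h. The arms overlapped at 24 h and stood far apart at 144 h (change 2.25 ± 0.25, adjusted p = 0.000386).

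Of the 12 leading upward genes, 6 were lower with mir-429 at 24 h and were not called at 144 h: WIPF1, described with the targets, and the following 5. PANX1, a large-pore channel, had an effect of -0.13 at 144 h and -2.21 at 24 h. B4GAT1, a glycosyltransferase that acts on dystroglycan, had -0.04 and -2.13 at those times, and BCL2A1, a survival protein of the BCL2 family, -0.04 and -2.30. ESM1, a secreted proteoglycan, had 0.47 at 144 h and -1.47 at 24 h, and ZCCHC24 had -0.19 and -2.0. In each of these 5 genes mir-429 cells rose over time, by 1.70 to 2.38. Of the 3 probe sets of PANX1, 2 had the same sign, and the 2 of B4GAT1 had changes of 0.15 and 2.09. HMOX1, the heme-degrading oxygenase, differed from them in its arms. It was at 5.42, 5.81 and 6.02 in mir-429 and 6.36, 6.46 and 6.35 in control cells at 144 h, and at 7.22, 7.38 and 7.40 in mir-429 and 9.64, 9.89 and 10.19 in control cells at 24 h, with 6.21 in untransfected cells on average. Levels fell in both arms, by 1.58 in mir-429 and 3.52 in control cells, and the high values were those of control cells at 24 h (change of effect 1.93 ± 0.22, adjusted p = 0.000447).

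**Figure D2:**
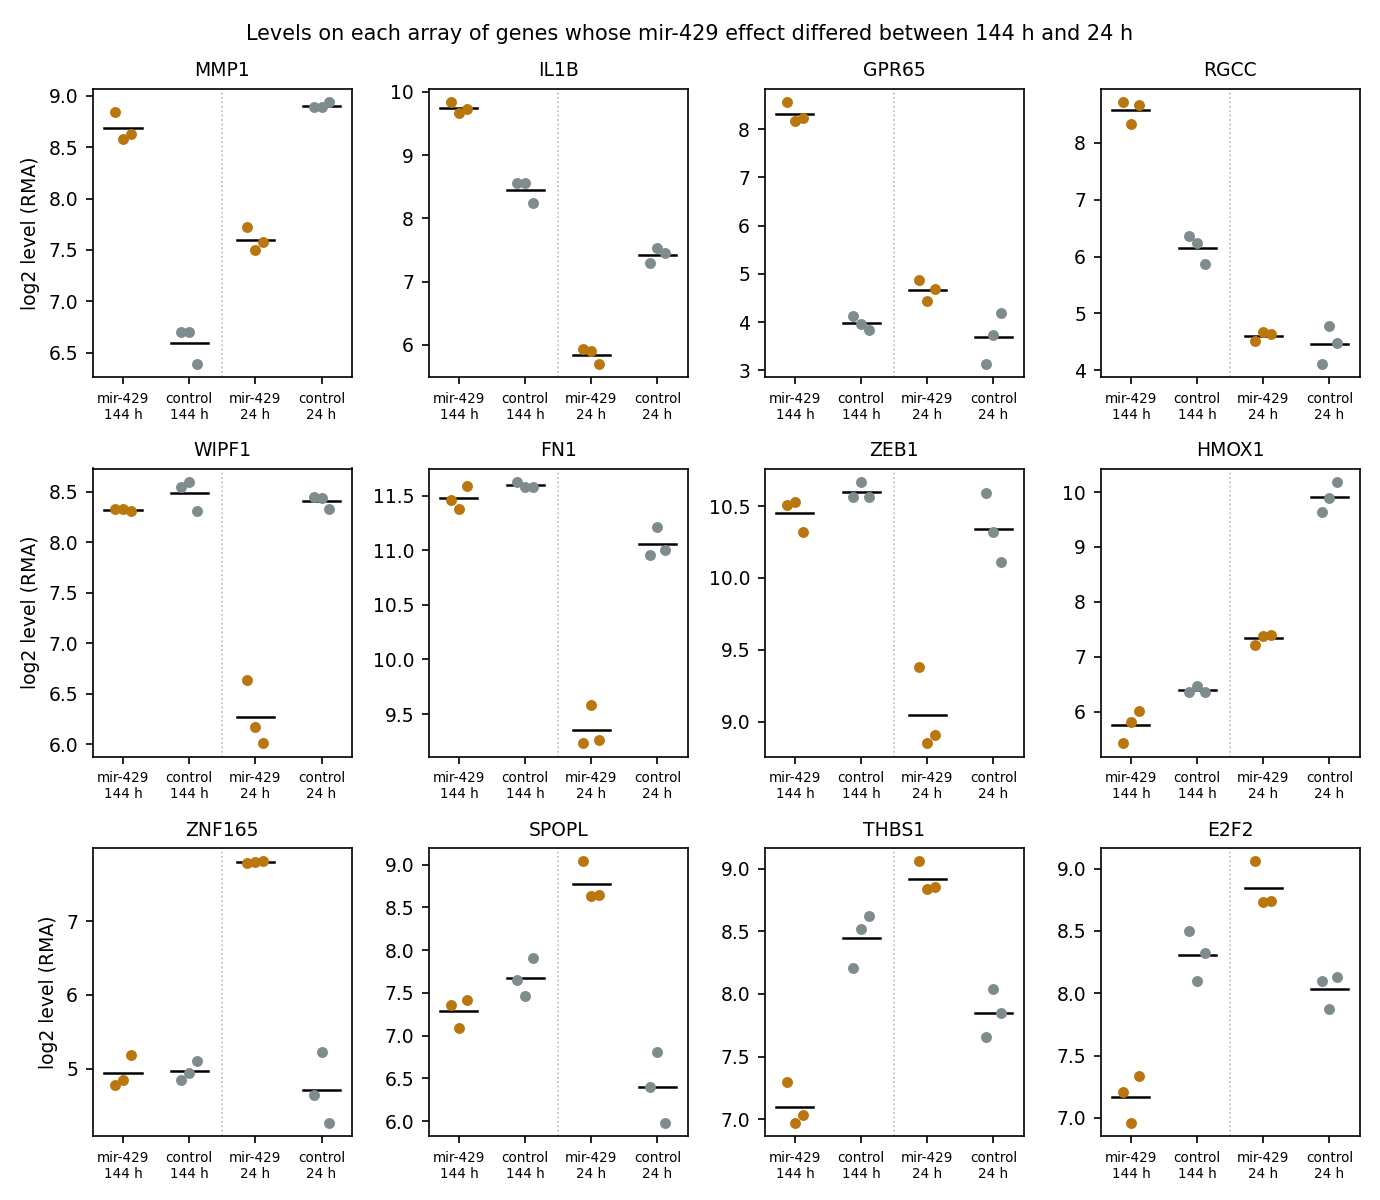
Each panel shows the log2 level of a gene on the 12 arrays, with mir-429 and control at 144 h left of the dotted line and mir-429 and control at 24 h right of it; points are arrays, bars are group means, and the vertical scale differs between panels. MMP1 and IL1B change sides between the times, WIPF1, FN1 and ZEB1 are low in mir-429 cells at 24 h alone among these 4 groups, and ZNF165 is high there alone.

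ZNF165, a zinc finger gene of the cancer-testis type, led the downward changes. It was at 4.78, 4.84 and 5.18 in mir-429 and 4.85, 4.94 and 5.10 in control cells at 144 h, and at 7.80, 7.81 and 7.82 in mir-429 and 4.64, 5.22 and 4.26 in control cells at 24 h. The mir-429 arrays at 24 h stood apart from the other 9, which overlapped (change -3.14 ± 0.27, limma adjusted p = 0.000129). SPOPL, a substrate adaptor of cullin 3 ubiquitin ligases, was at 7.36, 7.09 and 7.42 in mir-429 and 7.65, 7.46 and 7.91 in control cells at 144 h, and at 9.04, 8.63 and 8.64 in mir-429 and 6.40, 6.81 and 5.98 in control cells at 24 h. Here mir-429 cells fell by 1.48 and control cells rose by 1.28 over time, so that the arms were close at 144 h, with mir-429 just below control (change -2.75 ± 0.28). FECH, the final enzyme of heme synthesis, changed by -2.50 ± 0.23, with effects of -0.37 at 144 h and 2.13 at 24 h. ZNF367, another zinc finger gene, changed by -2.48 ± 0.29 and FHIP1A by -2.15 ± 0.30. FEM1A, an adaptor of a cullin 2 ligase, changed by -2.22 ± 0.57, and this call was lost with the quality term (-1.46) and without replicate 1 of mir-429 at 24 h (-2.03). RBM47, an RNA-binding protein of epithelial cells, changed by -2.57 ± 0.44 and by -2.17 with dim values raised to the median. C4BPB, a chain of the complement inhibitor C4b-binding protein, changed over time by 0.03 in mir-429 cells and rose by 2.21 in control cells (change of effect -2.18 ± 0.35). C3orf80 had an effect of -1.75 at 144 h and 0.69 at 24 h, which was not called at 24 h (change -2.44 ± 0.42). At 144 h it was at 3.70, 5.19 and 4.96 in mir-429 and 6.17, 6.41 and 6.51 in control cells. The array with its lowest value, replicate 1 of mir-429, also had the lowest median of the 12 arrays, 3.95.

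Of 58 tested members of a list of described miR-200 family targets, the effect moved upward in 14 (24.1%, against 8.07% of all genes) and downward in 7 (12.1%, against 13.2%), with a median change of 0.14, against -0.04 over all genes. With mir-429, 1 member was higher (1.72%, against 2.07% of all genes) and 3 lower (5.17%, against 5.02%) at 144 h, and 8 were higher (13.8%, against 16.2%) and 20 lower (34.5%, against 13.9%) at 24 h. Over time 29 members rose in mir-429 cells (50%, against 15% of all genes) and 17 in control cells (29.3%, against 14.2%). ZEB1, the repressor of junction genes, was at 10.51, 10.53 and 10.32 in mir-429 and 10.56, 10.67 and 10.56 in control cells at 144 h, and at 9.38, 8.85 and 8.91 in mir-429 and 10.59, 10.32 and 10.11 in control cells at 24 h. Mir-429 cells at 24 h were low and did not overlap control, and at 144 h they lay just below control, with means of 10.45 in mir-429 and 10.60 in control cells. Its effect was -0.14 ± 0.15 at 144 h (adjusted p = 0.627) and -1.29 ± 0.15 at 24 h, a change of 1.15 ± 0.21 (limma adjusted p = 0.00438). ZEB2 had effects of -0.33 ± 0.21 at 144 h and -0.43 ± 0.21 at 24 h, and neither these nor the change of 0.09 (95% interval -0.55 to 0.73) passed the test. Its 3 probe sets above the filter had changes of the same sign, between 0.09 and 0.96.

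WIPF1, which binds the actin regulator WASP, was at 8.33, 8.33 and 8.31 in mir-429 and 8.55, 8.60 and 8.31 in control cells at 144 h, and at 6.64, 6.17 and 6.01 in mir-429 and 8.45, 8.44 and 8.33 in control cells at 24 h. The matrix protein fibronectin, FN1, was at 11.46, 11.38 and 11.59 in mir-429 and 11.63, 11.58 and 11.58 in control cells at 144 h, and at 9.23, 9.58 and 9.26 in mir-429 and 10.96, 11.21 and 11 in control cells at 24 h. Both genes were low in mir-429 cells at 24 h and overlapped control at 144 h, with changes of 1.97 ± 0.20 and 1.59 ± 0.16. Of 4 probe sets of WIPF1, 3 had this sign, and of 6 of FN1, 4 did. The phosphatase PPM1F changed by 1.69 ± 0.19, and its 4 probe sets by 0.09 to 1.69. The actin-severing CFL2 changed by 1.03 ± 0.22 and SEC23A, a coat protein of secretory vesicles, by 1.01 ± 0.25, both named after their values were seen. With the quality term in the fit, 12 target genes were called upward (20.7%, against 1.66% of all genes) and 3 downward (5.17%, against 3.03%).

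Among epithelial genes the called changes were mostly downward. The list held 68 genes, 61 with a probe set, and 30 were bright enough to test; those set aside include CDH1, at 2.20 to 3.68 over the 12 arrays, and EPCAM, at 1.94 to 2.67, both below the medians throughout. GRHL1 passed on 3 arrays of a single group, and a gene that passes in this way had to differ, so counts over the 30 do not describe the whole list. The list was also chosen with earlier results of these data known, so its shares are not independent of them. With mir-429, 13 of the 30 were higher (43.3%, against 2.07% of all genes) and 2 lower (6.67%, against 5.02%) at 144 h, and 16 were higher (53.3%, against 16.2%) and 1 lower (3.33%, against 13.9%) at 24 h. The effect moved downward in 8 (26.7%, against 13.2%) and upward in 1 (3.33%, against 8.07%), FGFBP1, with a median change of -0.15. Without GRHL1 the counts over 29 genes were 7 downward (24.1%) and 15 higher at 24 h (51.7%). FGFBP1, a carrier that releases fibroblast growth factors from the matrix, was at 11.50, 11.29 and 11.29 in mir-429 and 8.96, 8.42 and 8.33 in control cells at 144 h, and at 9.13, 9.04 and 9.12 in mir-429 and 6.92, 7.29 and 7.27 in control cells at 24 h. Levels rose over time in both arms and the arms never overlapped, with effects of 2.79 ± 0.16 at 144 h and 1.94 ± 0.16 at 24 h. The change of 0.85 ± 0.22 (limma adjusted p = 0.0201) was 0.78 and not called without replicate 2 of control at 144 h, and it was not called with the quality term (1.06).

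CDS1, an enzyme of phospholipid synthesis, was at 6.07, 5.80 and 6.09 in mir-429 and 4.25, 4.09 and 4.02 in control cells at 144 h, and at 6.77, 6.74 and 6.69 in mir-429 and 3.24, 4.33 and 3.56 in control cells at 24 h. Control cells were near or below the array median, so the effect was at least 1.75 at 144 h and at least 2.44 at 24 h. Its measured change of -1.16 ± 0.30 (limma adjusted p = 0.0185) was -0.69 with dim values raised to the median, and the call was lost with the quality term and in the fit to all 21 arrays. MAP7, which binds microtubules, was at 5.95, 6.23 and 5.94 in mir-429 and 5.02, 5.04 and 4.96 in control cells at 144 h, and at 7.33, 6.87 and 7.31 in mir-429 and 5.01, 5.18 and 4.86 in control cells at 24 h. Control cells stayed level, and mir-429 cells at 144 h lay between them and mir-429 cells at 24 h (change -1.12 ± 0.19, adjusted p = 0.00306). PARD6B, a polarity protein, had effects of 0.61 at 144 h and 1.82 at 24 h, and PKP2, a desmosome plaque protein, of 0.62 and 1.78; the change of both was no longer called with the quality term (-0.94 and -1.06). CGN, the tight junction protein cingulin, had -0.08 at 144 h and 1.01 at 24 h, a change that was not called when its probe sets were averaged (-0.61). KRT80, a keratin, rose over time in both arms, by 1.2 in mir-429 and 2.27 in control cells.

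For 3 epithelial genes chosen after their values were seen, the effect was called at both times and its change was not. ESRP1, an epithelial splicing factor, was at 7.56, 7.06 and 7.17 in mir-429 and 6.39, 6.38 and 6.34 in control cells at 144 h, and at 6.72, 6.40 and 6.82 in mir-429 and 5.67, 5.79 and 5.70 in control cells at 24 h. The 2 arms were apart at each time by similar amounts, 0.89 and 0.93, and the change was -0.04 (95% interval -0.46 to 0.38). The desmosome protein DSP had effects of 0.86 at 144 h and 1.2 at 24 h (95% interval of the change -0.70 to 0.02). PATJ, a tight junction scaffold, had 0.69 at 144 h and 0.95 at 24 h (-0.66 to 0.15).

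**Figure D3:**
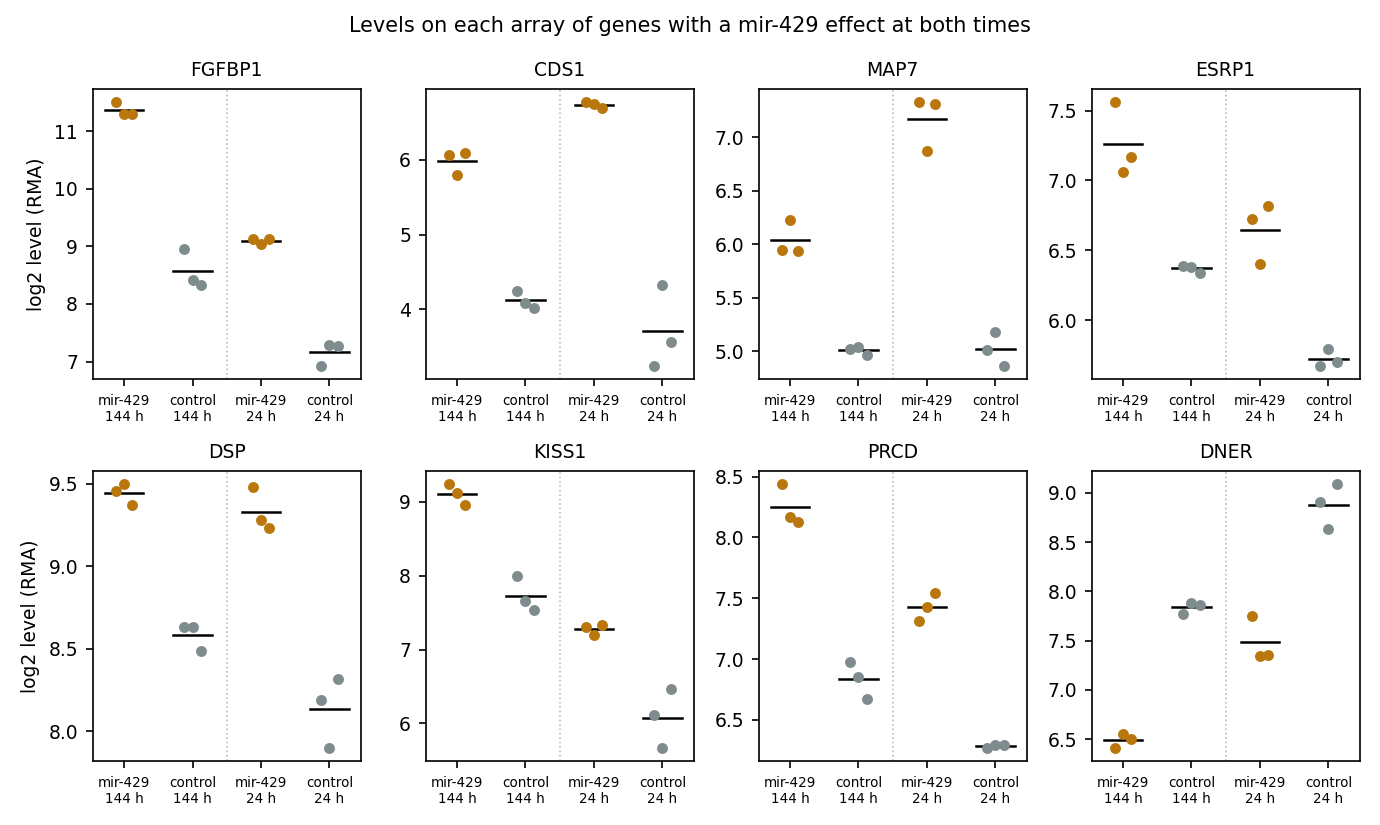
Log2 levels on the 12 arrays of 8 genes called with mir-429 at both times, with mir-429 and control at 144 h left of the dotted line and mir-429 and control at 24 h right of it; points are arrays, bars are group means, and the vertical scale differs between panels. In all 8 panels the arms are apart at both times, and DNER is the panel in which mir-429 is below control.

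The ZEB proteins bind E-boxes with the letters CACCTG, so the promoters of the epithelial genes were searched for them on both strands, from 250 bases before to 50 after the RefSeq start. A window was available for 18 of the 30 tested members, and 11 of them (61.1%) held the motif, against 1859 of 10225 tested genes with a window (18.2%) and 5625 of 27305 promoters of this length in all (20.6%). The motif was in 179 of the 999 windows (17.9%) of genes higher at 24 h whose effect then moved downward. Of 10 windows of epithelial genes higher at 24 h, 7 held it (70%), and those of CGN, FGFBP1 and GRHL1 did not. Among epithelial genes not higher at 24 h, it was in AP1M2, CLDN3, LAMB3 and MUC1 and not in CLDN1, KRT8, LSR and TJP3. The windows of MAP7, whose effect shrank, and of PATJ, whose change was not called, are shown with the motif in capitals on either strand, 2 copies in MAP7 and 3 in PATJ. Such a match describes the letters and is neither a binding site nor a cause.
MAP7 promoter, GRCh38.p14 chr6:136550373-136550672, minus strand: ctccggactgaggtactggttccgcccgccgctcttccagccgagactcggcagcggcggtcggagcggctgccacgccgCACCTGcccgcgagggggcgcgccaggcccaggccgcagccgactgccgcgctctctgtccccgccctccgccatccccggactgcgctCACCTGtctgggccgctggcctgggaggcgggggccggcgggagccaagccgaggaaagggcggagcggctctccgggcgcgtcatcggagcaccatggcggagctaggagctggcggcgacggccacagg
PATJ promoter, GRCh38.p14 chr1:61742230-61742529, plus strand: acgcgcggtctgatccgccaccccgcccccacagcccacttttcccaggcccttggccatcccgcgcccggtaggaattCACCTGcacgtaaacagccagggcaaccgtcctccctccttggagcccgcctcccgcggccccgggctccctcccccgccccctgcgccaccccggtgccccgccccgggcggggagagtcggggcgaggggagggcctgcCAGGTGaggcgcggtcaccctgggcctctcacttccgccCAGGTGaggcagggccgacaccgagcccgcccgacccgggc

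Among mesenchymal genes the effect moved both ways, upward in 6 of 42 (14.3%, against 8.07% of all genes) and downward in 4 (9.52%, against 13.2%). With mir-429, 2 were higher (4.76%, against 2.07%) and 6 lower (14.3%, against 5.02%) at 144 h. At 24 h 7 were higher (16.7%, against 16.2%) and 14 lower (33.3%, against 13.9%). The median change was 0.13. LOX, which cross-links collagen, had effects of -0.37 at 144 h and -2.09 at 24 h (change 1.72 ± 0.21). Its 2 probe sets changed by 0.34 and 1.72. ITGA5, the fibronectin receptor subunit, had effects of 0.45 at 144 h and -0.63 at 24 h, both called (change 1.07 ± 0.13). The collagen gene COL5A1 had -1.11 at 144 h and 0.14 at 24 h, and control cells rose over time by 0.89 (change -1.25 ± 0.20). The intermediate filament VIM stood at a change of 0.26 (95% interval -0.04 to 0.56) and N-cadherin, CDH2, at -0.41 (-0.70 to -0.11, limma adjusted p = 0.0515), neither called; CDH2 passed in 8 of the alternative fits, at -0.33 to -0.49. Actin and motility genes had 8 of 60 upward (13.3%, against 8.07% of all genes) and 9 downward (15%, against 13.2%). Their median was 0.01. Among them MSN, which links actin to the membrane, changed by 0.94 ± 0.16, a call lost on averaging probe sets, the actin-bundling FSCN1 by 1.19 ± 0.22 and the formin-like DAAM1 by -1.61 ± 0.31, a call lost with the quality term. The 2 probe sets of FSCN1 changed by 0.24 and 1.19.

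DNA replication genes had 13 of 59 called members (22%, against 21.3% of all genes), every one of them downward (13.2% of all genes), with a median change of -0.26. Mir-429 cells had 18 members lower (30.5%, against 21% of all genes) and 2 higher (3.39%, against 15%) at 144 h than at 24 h. Control cells had 4 lower (6.78%, against 13.2%) and 8 higher (13.6%, against 14.2%). E2F2, an activator of S-phase genes, was at 7.21, 6.96 and 7.34 in mir-429 and 8.50, 8.10 and 8.32 in control cells at 144 h, and at 9.06, 8.73 and 8.74 in mir-429 and 8.10, 7.87 and 8.13 in control cells at 24 h. The arms changed places without overlap (effect -1.14 ± 0.14 at 144 h and 0.81 ± 0.14 at 24 h, change -1.95 ± 0.20, adjusted p = 0.000264). E2F8, a repressor of the same family, had -0.56 at 144 h and 0.77 at 24 h. MCM10, a replication initiation factor, had -0.73 at 144 h and 0.15 at 24 h, though its probe sets when averaged gave a change of -0.37 that was not called. DSCC1, of the clamp loader for sister chromatid cohesion, changed by -0.80 ± 0.14.

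Mitosis genes had 16 of 69 downward (23.2%, against 13.2% of all genes) and 3 upward (4.35%, against 8.07%). The median change was -0.20, and this came with a rise over time in both arms. Mir-429 cells had 25 members higher (36.2%, against 15% of all genes) and 2 lower (2.90%, against 21%) at 144 h than at 24 h, with a median of 0.20. Control cells had 39 higher (56.5%, against 14.2%), with a median of 0.40. The mitotic motor KIF11 was at 10.80, 10.81 and 10.67 in mir-429 and 11.14, 11.04 and 11.02 in control cells at 144 h, and at 10.87, 10.72 and 10.74 in mir-429 and 10.48, 10.33 and 10.16 in control cells at 24 h. Mir-429 cells were level, and control cells went over them by rising 0.74. The condensin subunit SMC2 changed by -0.80 ± 0.15, the spindle protein CKAP2 by -1.0 ± 0.20 and the mitotic kinase PBK by -0.78 ± 0.16. These 4 calls were lost with the quality term, where the values were -0.58 for KIF11, -0.74 for SMC2, -0.77 for CKAP2 and -0.77 for PBK. Without that term the 2 probe sets of CKAP2 changed by -1.0 and -0.04.

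**Figure D4:**
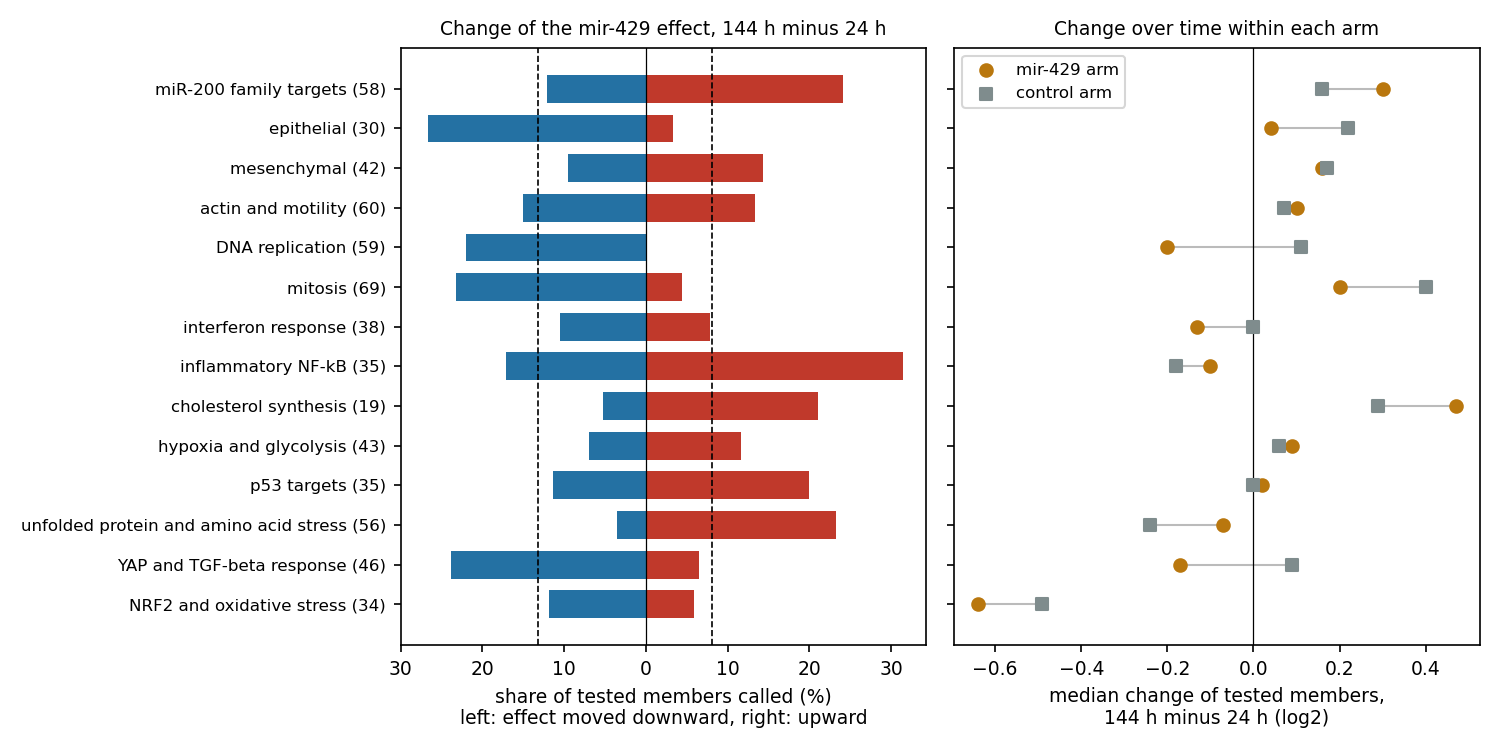
Left, the share of tested members (their number in brackets) of 14 gene lists whose mir-429 effect moved downward (blue, to the left) or upward (red, to the right), with dashed lines at the shares over all genes, 13.2% and 8.07%. Right, the median log2 change from 24 to 144 h of the same members in mir-429 cells (circles) and control cells (squares); NRF2 genes are lower at 144 h in both arms and DNA replication genes have medians of opposite sign.

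Inflammatory genes of the NF-kB programme had 11 of 35 upward (31.4%, against 8.07% of all genes) and 6 downward (17.1%, against 13.2%). The median change was 0.18. Beside IL1B and BCL2A1, CSF3, which stimulates granulocyte growth, had effects of 0.02 at 144 h and -1.22 at 24 h. The neutrophil chemokine CXCL8 had 0.28 at 144 h and -1.14 at 24 h (change 1.42 ± 0.23). IL1A, the other interleukin 1 ligand, was at 11.25, 11.30 and 10.80 in mir-429 and 10.09, 10.01 and 9.90 in control cells at 144 h, and at 9.19, 9.32 and 9.52 in mir-429 and 8.97, 9.18 and 9.19 in control cells at 24 h. Its mir-429 arrays were above control without overlap at 144 h and touched it at 24 h (change 0.89 ± 0.20). CD83, an activation marker of immune cells, had effects of -0.90 at 144 h and 0.11 at 24 h (change -1.01 ± 0.13). CD274, which encodes PD-L1, had 0.32 at 144 h and 1.39 at 24 h, and its 2 probe sets changed in opposite directions, by -1.07 and 0.38. The changes of IL1A and CD274 were not called with the quality term or on averaging probe sets; these 2 and CXCL8 were named after their values were seen. Interferon response genes had 3 of 38 upward (7.89%) and 4 downward (10.5%), shares near the 8.07% and 13.2% of all genes. DTX3L, a ubiquitin ligase of that programme, had -0.24 at 144 h and 1.69 at 24 h (change -1.93 ± 0.14, adjusted p = 3.6e-05), OAS3 changed by -0.81 ± 0.16, the nuclease ISG20 by 0.70 ± 0.14 and the peptide transporter TAP1 by 0.61 ± 0.13, a call lost with the quality term.

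Genes of the unfolded protein and amino acid stress response had 13 of 56 upward (23.2%, against 8.07%) and 2 downward (3.57%, against 13.2%). The median change was 0.19. Mir-429 cells had 13 members lower (23.2%) and 10 higher (17.9%) at 144 h than at 24 h, near the 21% and 15% of all genes. Control cells had 20 lower (35.7%, against 13.2%) and 2 higher (3.57%, against 14.2%). CHAC1, which degrades glutathione, was at 5.41, 4.88 and 5.36 in mir-429 and 3.84, 4.44 and 4.61 in control cells at 144 h, and at 5.15, 5.03 and 5.38 in mir-429 and 5.20, 5.81 and 5.81 in control cells at 24 h. Mir-429 cells were level (0.03), control cells fell by 1.31, and the arms were apart at 144 h and overlapped at 24 h. The stress transcription factor DDIT3 had the same pattern, with effects of 0.74 at 144 h and -0.29 at 24 h. ASNS, asparagine synthetase, had 0.59 and -0.33 at those times and the stress regulator NUPR1 0.53 and -0.60. WARS1, a tRNA synthetase, changed by 0.71 ± 0.15, and EDEM3, which marks misfolded glycoproteins for degradation, by -1.48 ± 0.21. With the quality term 2 members were called upward (3.57%, against 1.66% of all genes) and 1 downward (1.79%, against 3.03%), and the calls of CHAC1 (0.77), DDIT3 (0.68) and WARS1 (0.47) were lost; that of ASNS was lost on averaging probe sets (0.37). CHAC1 and DDIT3 were named after their values were seen.

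Genes that respond to YAP and TGF-beta had 11 of 46 downward (23.9%, against 13.2% of all genes) and 3 upward (6.52%, against 8.07%). Their median was -0.14. THBS1, thrombospondin 1, was at 7.30, 6.97 and 7.03 in mir-429 and 8.21, 8.52 and 8.62 in control cells at 144 h, and at 9.06, 8.84 and 8.85 in mir-429 and 7.66, 8.04 and 7.85 in control cells at 24 h, with a mean of 7.06 in untransfected cells. The arms changed places without overlap, and mir-429 cells at 144 h were close to untransfected cells (change -2.41 ± 0.20, limma adjusted p = 8.98e-05). The ligand TGFB2 had effects of -0.83 at 144 h and 1.37 at 24 h. SMAD7, an inhibitor of the pathway that its signal induces, had -0.82 at 144 h and 0.82 at 24 h, and the inhibitor PMEPA1 had 0.05 and 1.01 at those times. ID1, a target of BMP and TGF-beta signals, fell over time in both arms, by 2.67 in mir-429 and 0.98 in control cells (change -1.69 ± 0.32). SKIL, a SMAD corepressor, changed by -1.15 ± 0.22, a call lost with the quality term, and 4 of its 5 probe sets had this sign. SKIL and ID1 were named after their values were seen. TGFB1I1, a focal adhesion protein, went upward by 1.29 ± 0.13.

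Heme and oxidative stress genes under NRF2 had 2 of 34 upward (5.88%, against 8.07% of all genes) and 4 downward (11.8%, against 13.2%). Over time, though, 23 members fell in mir-429 cells (67.6%, against 21% of all genes) and 20 in control cells (58.8%, against 13.2%). BLVRB, which reduces biliverdin and flavins, had effects of 0.54 at 144 h and -0.49 at 24 h. GCLC, of glutathione synthesis, changed by -0.80 ± 0.15 and TRIM16 by -1.10 ± 0.32; both calls were lost with the quality term, and that of TRIM16 also in 5 of the 12 fits that left out an array (-1.01 to -1.10). Cholesterol synthesis genes had 4 of 19 upward (21.1%, against 8.07% of all genes) and 1 downward (5.26%, against 13.2%), with a median of 0.14. With mir-429, 7 of the 19 were higher (36.8%, against 16.2%) and 3 lower (15.8%, against 13.9%) at 24 h. At 144 h 3 were higher (15.8%, against 2.07%) and 0 lower (against 5.02%). The genes named next were picked among the called changes and do not stand for the list at 24 h. SREBF2, the transcription factor that drives the pathway, was at 9.08, 9.18 and 9.11 in mir-429 and 8.64, 8.63 and 8.58 in control cells at 144 h, and at 8.01, 8.20 and 7.99 in mir-429 and 8.50, 8.39 and 8.67 in control cells at 24 h. Its arms changed places without overlap (change 0.96 ± 0.14, limma adjusted p = 0.00122). The sterol sensor partner INSIG1 changed by 0.68 ± 0.18, the enzyme MSMO1 by 0.66 ± 0.15 and the enzyme DHCR7 by 0.56 ± 0.16, a call lost with the quality term (0.45), on averaging probe sets (0.46) and in 5 of the 12 fits that left out an array (0.46 to 0.57).

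Among p53 targets 7 of 35 were upward (20%, against 8.07% of all genes) and 4 downward (11.4%, against 13.2%). Their median was -0.02 (0.04 after quantile scaling). The stress cytokine GDF15 had effects of 0.82 at 144 h and -0.68 at 24 h (change 1.5 ± 0.23), with 2 of its 3 probe sets of that sign. SESN1, a sestrin that restrains growth signalling, changed by 1.18 ± 0.16, the cyclin CCNG2 by 1.07 ± 0.14 and the decoy death receptor TNFRSF10D by -0.62 ± 0.13; the calls of CCNG2 and TNFRSF10D were lost on averaging probe sets. Hypoxia and glycolysis genes had 5 of 43 upward (11.6%, against 8.07% of all genes) and 3 downward (6.98%, against 13.2%). The median was 0.06. The stress-responsive NDRG1 had 0.63 at 144 h and -0.43 at 24 h, and the mitochondrial kinase AK4 had -0.55 and 0.47 at those times. PLOD2, which modifies collagen, changed by 0.60 ± 0.12 and the hexokinase HK1 by 0.53 ± 0.14, a call lost with the quality term.

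Among markers of other cell types, LCP1, an actin-bundling protein of leukocytes that many tumour lines also make, was higher with mir-429 by 1.34 at 144 h and 1.02 at 24 h, with no called change (0.32, 95% interval -0.14 to 0.79). Of 8 tested endothelial markers 3 moved upward (37.5%, against 8.07% of all genes) and 0 downward (against 13.2%). These 3 were the guidance receptor ROBO4 (1.14 ± 0.18), VE-cadherin CDH5 (1.04 ± 0.21) and the receptor TIE1 (1.03 ± 0.21, not called on averaging probe sets, 0.34). No change was called for the other tested markers, ENG, EGFL7, CLDN5, KDR and ESAM. PECAM1 and VWF were above the array median on 1 array each and TEK, ERG, EMCN and CD34 on 0. The mean level of all 14 endothelial markers was 5.46 to 5.89 in mir-429 and 5.66 to 5.75 in control arrays at 144 h, and 5.24 to 5.27 in mir-429 and 5.40 to 5.53 in control arrays at 24 h. Their part in other results was not tested. Of the ovarian markers, the transcription factor PAX8 had effects of 0.28 at 144 h and -0.85 at 24 h, with the change of the same sign for all 8 of its probe sets (change 1.13 ± 0.18). WT1, another, changed by -0.65 ± 0.19, a call lost with the quality term (-0.82) and in 7 of the 12 fits that left out an array (-0.57 to -0.65).

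Effects called in opposite directions at the 2 times were led, beside the genes above, by HCFC1R1, a regulator of the host cell factor HCFC1, with 0.95 at 144 h and -0.59 at 24 h. In the other direction SLC40A1, the iron exporter ferroportin, had -0.91 at 144 h and 1.16 at 24 h, and the zinc finger gene ZNF214 had -1.12 and 1.01 at those times. CPA4, a carboxypeptidase, had -1.2 at 144 h and 0.91 at 24 h, or -0.82 and 0.62 with dim values raised to the median. For LINC00518 the effects were -0.95 and 1.43, and raised to the median -0.13 at 144 h and 1.13 at 24 h, since 3 of its groups were dim. The change raised in this way was -1.43 for CPA4 and -1.26 for LINC00518. For these last 4 genes the call at 144 h was lost in at least 3 of the 12 fits that left out an array, although the arms did not overlap at 144 h. Replicate 1 of mir-429 at 144 h, the array of lowest median (3.95), was the lowest of its group for SLC40A1 (3.75), ZNF214 (3.83) and CPA4 (2.99). It was not the lowest for LINC00518.

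Lasting effects with no called change were as follows. KISS1, a secreted peptide known as a metastasis suppressor, was at 9.24, 9.12 and 8.95 in mir-429 and 7.99, 7.65 and 7.53 in control cells at 144 h, and at 7.30, 7.20 and 7.33 in mir-429 and 6.11, 5.67 and 6.46 in control cells at 24 h. Both arms rose over time in parallel and stayed apart (effects 1.38 ± 0.18 at 144 h and 1.2 ± 0.18 at 24 h; 95% interval of the change -0.37 to 0.73). PRCD, a small membrane protein of photoreceptors, had effects of 1.42 ± 0.11 at 144 h and 1.15 ± 0.11 at 24 h (-0.08 to 0.62). C1orf116 had 1.08 and 1.12 at those times (-0.57 to 0.50), with 2 of its 3 probe sets of the same sign as this small change. FGD6, an exchange factor for Cdc42-type GTPases, had 1.21 at 144 h and 1.85 at 24 h, and its interval of -1.22 to -0.05 leaves out 0 although the adjusted p was 0.112.

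Of the lasting falls, DNER, a membrane protein with EGF repeats that is known as a Notch ligand, was at 6.41, 6.55 and 6.5 in mir-429 and 7.77, 7.88 and 7.86 in control cells at 144 h, and at 7.75, 7.34 and 7.35 in mir-429 and 8.91, 8.63 and 9.09 in control cells at 24 h. Both arms changed over time by about the same amount, -1.0 in mir-429 and -1.04 in control cells, with mir-429 below control throughout (95% interval of the change -0.37 to 0.46). FAM78B had effects of -1.78 at 144 h and -1.27 at 24 h, with an interval of the change of -0.97 to -0.05 and an adjusted p = 0.108. The aggrecan-cleaving protease ADAMTS5 had -1.05 and -1.46 at those times (-0.22 to 1.05), the hair keratin KRT33B -1.26 and -1.06 (-1.02 to 0.62) and TNIP3, an inhibitor of NF-kB signalling, -0.93 and -1.07 (-0.55 to 0.83). For these 3 a mir-429 group lay below the array medians, and with dim values raised the effects were -1.05 and -0.89 for ADAMTS5, -1.26 and -0.58 for KRT33B, and -0.55 and -1.07 for TNIP3, at 144 h and 24 h in that order.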

How the data were processed

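Gene expression was measured on Affymetrix arrays of HEY cells, and the 12 arrays at 144 and 24 h of 2 arms are used here, 3 per group. Per the submitters' processing notes the deposited values are log2 levels per probe set made with RMA, with no version stated in the sources used here. Values run from 0.75 to 14.97. GEO's platform annotation gave 41097 of 54675 probe sets 1 symbol, updated through RefSeq (GRCh38.p14), 1801 several and 11777 none. A gene was represented by its probe set of highest mean, taken over the 12 arrays. Genes above the array median on at least 3 arrays were tested, 12580 of 19775.

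Limma 3.58.1 in R 4.3.3 fitted 4 group means and the 5 contrasts (lmFit, eBayes; 8 residual and 4.05 prior degrees of freedom), two-sided, with Benjamini-Hochberg adjustment over all genes tested and a threshold of 0.05. Scripts were tested on simulated data. Array number limits the precision. Intervals are 95%. A group below its array medians was raised to them for bounds.

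Named genes were the 12 largest called changes in each direction with arms apart at a time, ranked by the smaller of the measured and the raised change; up to 4 called members per list by p; up to 5 per direction with opposite calls, and up to 5 with like calls and no called change; and CDH1, CDH2, EPCAM, FN1, VIM, ZEB1 and ZEB2. Of genes outside this rule, FGFBP1, CDS1, ESRP1, DSP, PKP2, PATJ, CFL2, SEC23A, CXCL8, CHAC1, DDIT3, ID1, SKIL, IL1A and CD274 were chosen after their values were seen. The members, lists and tests were chosen with earlier results of these data known. 1 gene that the rule names is not reported here. Lists are described by counts and medians, without a test. Alternatives were the scaling, the filter, the probe set rule, all 21 arrays, array weights, a trended robust prior, the replicate block, an RNA quality term and leaving out each array.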

Additional observations from a re-analysis of the deposited data

Results flagged for a closer look

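The mir-429 effect differed between 144 and 24 h in 2675 genes, tested as the difference itself. Of the genes named above, those called in opposite directions at the 2 times are repeated here by the size of that difference (log2). Higher at 144 h and lower at 24 h were MMP1 (3.39), IL1B (2.87), TMEM158 (2.41), HCFC1R1 (1.53), GDF15 (1.5), FSCN1 (1.19), NUPR1 (1.13), ITGA5 (1.07), NDRG1 (1.06), BLVRB (1.03), SREBF2 (0.96) and ASNS (0.91). Nearest the threshold among these at 144 h were TMEM158, FSCN1 and NUPR1 (limma adjusted p = 0.027, 0.0392 and 0.0396). The 144 h call of TMEM158 was lost in several alternative fits, as given above. Lower at 144 h and higher at 24 h were THBS1 (-2.41), ZNF214 (-2.12), SLC40A1 (-2.07), E2F2 (-1.95), SMAD7 (-1.63), E2F8 (-1.33) and AK4 (-1.01). So were CPA4 (-2.11) and LINC00518 (-2.38), whose differences were -1.43 and -1.26 with dim values raised to the array median. The 144 h calls of ZNF214, SLC40A1, CPA4 and LINC00518 were also lost in some fits that left out an array. The part of the RNA quality gap, which was wider at 24 h, in these differences was not tested beyond the quality term.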

How the results depend on the processing

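Of the 345 comparisons of a count with its alternatives, 58 moved by more than 1.5 times. Counts within the gene lists were compared separately, and 168 of 782 such comparisons moved. Counts with the quality term are given above only for the target list and the stress list, so the shares of the other lists rest on the fit without it. The 2675 changes numbered 1763 with no filter, 590 with the quality term and 4673 with array weights, and 1657 to 3976 when an array was left out (1657 without replicate 1 of mir-429 at 24 h, 1715 without replicate 2 of control at 144 h). The 1015 upward changes numbered 654 with no filter, 656 on averaging probe sets, 209 with the quality term, 1698 with weights and 636 to 1424 with an array left out (671 and 675 without replicates 1 and 2 of control at 144 h). The 1660 downward ones numbered 381 with the quality term, 2975 with weights and 1021 to 2552 with an array left out (2552 without replicate 2 of control at 24 h). At 144 h the 892 calls numbered 528 with no filter, 181 with the quality term, 2168 with weights and 322 to 1449 with an array left out, the lowest without replicate 2 of control at 144 h. At 24 h the 3788 calls numbered 64 with the quality term and 6186 with weights. The 3447 of control cells over time numbered 6932 with weights and 2281 to 4617 with an array left out, the lowest without replicate 1 of control at 144 h. No filter adjusts over more genes; the cause of the other moves was not tested. Single genes that turned sign were uncalled: C1orf116 (-0.03; 0.02 after quantile and 0.04 after common median scaling, -0.14 to 0.15 with an array left out), ESRP1 (-0.04; 0.01, 0.03, and -0.19 to 0.06), TNIP3 (0.14; -0.07 with the quality term, -0.11 to 0.36), KISS1 (0.18; -0.01 to 0.39), DNER (0.04; -0.06 to 0.18), KRT33B (-0.20; -0.37 to 0.06) and ZEB2 (0.09; -0.08 to 0.34). Of the 111 genes named and tested, 23 lost the call of a change with the quality term, 11 of 101 on averaging probe sets, 3 with no filter and up to 4 with an array left out.

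Samples of different groups share only a replicate number: the deviations of same-numbered arrays correlated at -0.09 to 0.31 over 18 pairs, 10 of them above 0.1, and 7 of 12 arrays correlated best with their own number. With the replicate block 3047 changes were called, 2599 of them among the 2675, and FAM78B and CDH2 became called.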

Other observations

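The 48 h arrays, used in the alternative fit to all 21 arrays and for the mean differences given here, stood apart in RNA quality. Their 3' minus 5' signal was 8.45 to 8.73 in mir-429 and 7.23 to 8.47 in control arrays, against 2.54 to 4.43 on the 12 arrays compared, and its part in the 48 h values was not tested. The 48 h mean difference lay between those at 144 and 24 h in 747 (73.6%) of the 1015 upward genes, in 1285 (77.4%) of the 1660 downward genes and in 41.0% of all genes tested; genes chosen for a wide gap leave more room for a value between, so the shares are not compared further. Of 4 genes chosen after their values were seen, MMP1 stood at -2.16 at 48 h, outside its values of 2.08 at 144 h and -1.30 at 24 h, and ZNF165 at 3.79, ESRP1 at 2.92 and MAP7 at 3.12 were above both of their own. In distance from the untransfected mean, mir-429 at 144 h was the farthest of the 4 groups for 25.8% of genes, control at 144 h for 5.72%, mir-429 at 24 h for 24.6% and control at 24 h for 43.9%. The SD of differences between arrays of a group was 0.26 to 0.32 in mir-429 and 0.20 to 0.25 in control cells at 144 h, and 0.20 to 0.27 in mir-429 and 0.24 to 0.44 in control cells at 24 h.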
